A study of Mus musculus with 8 samples.

Results

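Platelet and megakaryocyte genes were followed in RNA sequencing libraries made from naive B cells of mouse spleens. The set consists of 7 genes, Pf4, Ppbp, Itga2b, Gp1bb, Gp9, Treml1 and Clec1b, taken by their symbols from the 23302 entries of the deposited table of normalized counts, and all 7 were found there. All mice were C57BL/6, and the 8 libraries form 4 groups of 2. WT nontumor and WT tumor are wild-type mice without and with a pancreatic tumor. EBi3KO nontumor and EBi3KO tumor are mice whose genotype is given as B-EBi3-, read here as lacking the cytokine subunit Ebi3 in B cells, again without and with a tumor. The tumor status of nontumor mice is written as WT in the labels and was read as no tumor. The sources used here do not give age, how the tumor was made or what drives the Ebi3 deletion. They also do not tell whether each library is a separate animal, so p-values measure the spread between these libraries, which may be technical.

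Platelets are cell fragments without a nucleus that megakaryocytes shed into the blood, and they carry RNA made in the megakaryocyte. In mice the spleen is a site of megakaryocyte formation in adult life, and it also holds circulating platelets, which can adhere to leukocytes. Pf4 and Ppbp encode chemokines stored in platelet alpha granules. Itga2b is the alpha chain of the fibrinogen receptor, Gp1bb and Gp9 are subunits of the receptor complex for von Willebrand factor, Treml1 is a receptor of the alpha granule membrane, and Clec1b (CLEC-2) is the receptor for podoplanin. None of these proteins is a marker of B cells.

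Reads recovered from the normalized counts numbered 21291892 to 28297319 per library. Ebi3 had 201 and 164 normalized counts in WT tumor and 8.70 and 11.0 in EBi3KO tumor. Without a tumor it had 8.94 and 11.0 in WT and 12.8 and 11.5 in EBi3KO, so there it did not separate the genotype labels. With a tumor it did, but between groups that also differ in sex and title prefix, as given next. Xist, the RNA of the inactive X chromosome, was at 19760 and 26190 in WT tumor and at 18.3 or less elsewhere, and the Y-linked genes Uty, Kdm5d and Eif2s3y were at 0 reads in WT tumor only. WT tumor thus differs from the other groups in sex as well as in the prefix of its titles (IV, otherwise OT). Against WT nontumor neither can be told apart from the tumor, and against EBi3KO tumor neither can be told apart from the genotype. The EBi3KO tumor libraries resembled each other closely: 8.27% of genes differed between them beyond counting noise where 5% would be expected, against 33.25% to 45.05% in the other groups. Because these are bulk samples, fewer cells or platelets of a type and less RNA in each cannot be told apart.

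The genes lie on 5 chromosomes (mm10, GENCODE vM21). Ppbp (chr5:90768518-90770063) and Pf4 (chr5:90772435-90773383) stand on the same strand with 2371 bases between them. Itga2b lies at chr11:102453297-102470122, Gp1bb at chr16:18620317-18622403, Gp9 at chr6:87778072-87779768, Treml1 at chr17:48359916-48367176 and Clec1b at chr6:129397297-129409335. On the same strand Gp1bb overlaps Sept5 and Gm49601, and Clec1b overlaps Clec9a, so reads from the shared stretches may have been assigned to either gene. Sept5 and Gm49601 have no entry under these symbols, so their levels cannot be set beside Gp1bb. Clec9a had 141 and 136 normalized counts in WT nontumor, 38.9 and 25.2 in WT tumor. The EBi3KO libraries had 123 and 106 without a tumor and 73.1 and 95.3 with one.

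The promoters of 4 genes are shown: Pf4 and Ppbp are neighbours with the same kind of product, Itga2b is the receptor chain, and Clec1b is the gene called lower in EBi3KO tumor. Each runs from 250 bases before to 50 bases after the RefSeq gene start (GRCm38.p6). The regions are chr5:90772185-90772484 (plus strand), chr5:90768268-90768567 (plus strand), chr11:102469834-102470133 (minus strand) and chr6:129397047-129397346 (plus strand), in the order printed. Capitals mark matches, on either strand, to GATA motifs (AGATAA or TGATAA) and ETS motifs (AGGAAG or CGGAAG), the 2 motif classes commonly described at megakaryocyte promoters, which do not overlap each other.
Pf4: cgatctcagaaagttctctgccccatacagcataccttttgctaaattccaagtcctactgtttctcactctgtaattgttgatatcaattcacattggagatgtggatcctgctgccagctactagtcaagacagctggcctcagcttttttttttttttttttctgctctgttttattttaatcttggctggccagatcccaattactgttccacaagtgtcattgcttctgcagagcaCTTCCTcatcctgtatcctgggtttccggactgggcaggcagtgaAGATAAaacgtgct
Ppbp: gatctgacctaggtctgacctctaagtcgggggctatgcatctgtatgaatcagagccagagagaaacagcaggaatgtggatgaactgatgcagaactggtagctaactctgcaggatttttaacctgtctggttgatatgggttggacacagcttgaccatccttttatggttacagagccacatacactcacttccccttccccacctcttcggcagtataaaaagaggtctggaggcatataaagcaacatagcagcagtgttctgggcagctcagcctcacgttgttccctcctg
Itga2b: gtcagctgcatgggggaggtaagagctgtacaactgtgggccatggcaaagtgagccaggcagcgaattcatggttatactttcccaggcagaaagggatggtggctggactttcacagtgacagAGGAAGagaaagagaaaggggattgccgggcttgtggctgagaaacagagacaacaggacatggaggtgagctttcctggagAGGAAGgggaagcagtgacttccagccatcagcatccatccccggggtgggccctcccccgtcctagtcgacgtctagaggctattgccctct
Clec1b: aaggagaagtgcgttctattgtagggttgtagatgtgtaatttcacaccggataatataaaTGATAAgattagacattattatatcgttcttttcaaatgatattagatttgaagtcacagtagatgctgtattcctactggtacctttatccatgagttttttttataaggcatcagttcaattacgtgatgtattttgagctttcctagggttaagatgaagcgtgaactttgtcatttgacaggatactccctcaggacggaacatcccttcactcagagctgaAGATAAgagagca

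Pf4 has an ETS match 9 bases before the gene start and a GATA match 36 bases after it. Itga2b has ETS matches 125 and 43 bases before its RefSeq start. Its GENCODE bounds given above reach further upstream, so both matches lie within them. Clec1b has GATA matches 189 bases before its start and 37 bases after. Ppbp has neither. Across the 7 promoters, 2 hold a GATA match, 4 an ETS match and 1 both, against 18.6%, 46.5% and 7.7% of 32851 RefSeq promoters of the same length. The matches are a description of these letters in these windows.

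Per transcript length, the most abundant of the 7 were the granule chemokines and Clec1b. In WT nontumor, Pf4 stood at 53.8 ± 16.9 RPKM (SD, n = 2 here and below; recovered reads per kilobase of transcript, scaled to library depth), Ppbp at 51.3 ± 18.2 and Clec1b at 41.7 ± 8.50. These 3 levels do not differ beyond their spread. Gp9 followed at 20.6 ± 7.42, Itga2b at 15.2 ± 5.93, Treml1 at 8.92 ± 3.39 and Gp1bb at 2.17 ± 1.11. In WT tumor the order of the leading genes was Ppbp at 21.7 ± 1.88, Pf4 at 13.3 ± 2.57 and Clec1b at 6.12 ± 0.0833 on the same scale, with Gp1bb again lowest at 0.228 ± 0.0484.

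In WT mice every one of the 7 genes was called lower with a tumor. The fold differences ran from 3.14 (Ppbp) to 11.2 (Gp1bb) on the log2(normalized count + 1) scale. The background is high: 40.1% of the 13011 tested genes were called lower in this comparison (limma, Benjamini-Hochberg adjusted p below 0.05). The median log2 difference of the 7 genes was -2.75, and that of all tested genes was 0.0099. The plot of normalized counts by library shows the 7 genes side by side.

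**Figure D1:**
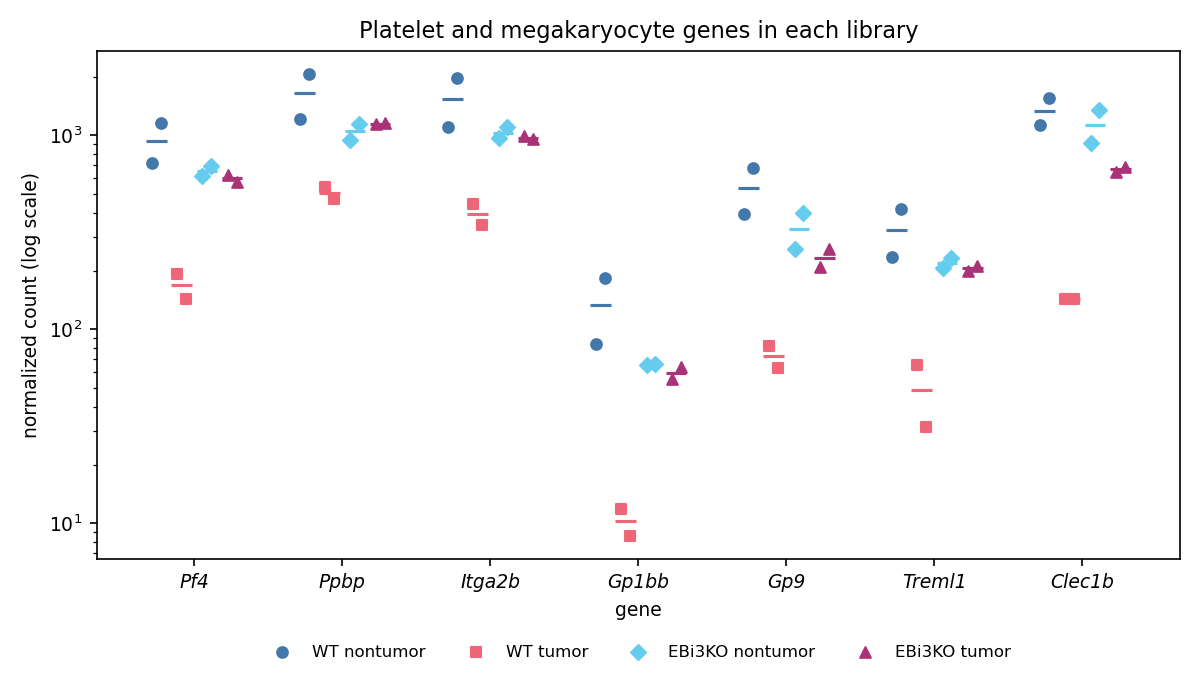
Normalized counts (log scale) of the 7 genes in each of the 8 libraries; points are libraries, short lines are group means of 2 libraries. Both WT tumor libraries lie below all 6 other libraries for each gene, and WT nontumor shows the widest gaps between its 2 libraries for most genes. How many of all tested genes show this order is not given here.

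Pf4, a chemokine that binds heparin, had 718 and 1155 normalized counts in WT nontumor, 193 and 144 in WT tumor. In EBi3KO mice it had 615 and 695 without a tumor and 625 and 576 with one. The WT tumor libraries were the lowest and the EBi3KO groups overlapped each other. In WT the log2 difference was -2.44 (SE 0.217, limma adjusted p = 1.15e-05), a 5.44-fold lower level.

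Ppbp, the precursor of the neutrophil-attracting chemokine CXCL7, had 1214 and 2076 normalized counts in WT nontumor but 542 and 471 in WT tumor. In EBi3KO it had 947 and 1151 without a tumor and 1142 and 1159 with one, so that these groups overlapped. Its log2 difference in WT, -1.65 (SE 0.216, limma adjusted p = 0.000112), was the smallest of the 7.

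Itga2b pairs with Itgb3 in the fibrinogen receptor. It had 1099 and 1986 normalized counts in WT nontumor, 441 and 345 in WT tumor. EBi3KO libraries held 970 and 1099 without a tumor and 987 and 953 with one. Both WT tumor libraries lay below all others. The log2 difference in WT was -1.92 (SE 0.238, limma adjusted p = 8.06e-05).

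Gp1bb and Gp9 anchor the von Willebrand factor receptor in the membrane together with Gp1ba. Gp1bb had 83.8 and 184 normalized counts in WT nontumor, 11.9 and 8.65 in WT tumor. Values in EBi3KO were 65.2 and 66.2 without a tumor and 55.7 and 64.2 with one. The WT tumor values rest on 15 and 11 reads, the fewest of any of the 7 genes. The log2 difference in WT was -3.49 (SE 0.354, limma adjusted p = 2.38e-05).

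Gp9 had 395 and 680 normalized counts in WT nontumor, 82.6 and 62.9 in WT tumor. EBi3KO values were 259 and 396 without a tumor and 210 and 258 with one. The EBi3KO tumor libraries lay just below the EBi3KO nontumor ones, without overlap. The log2 difference in WT was -2.83 (SE 0.287, limma adjusted p = 2.42e-05).

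Treml1, which is brought to the platelet surface on activation, had 235 and 417 normalized counts in WT nontumor, 65.9 and 31.5 in WT tumor. The EBi3KO libraries had 208 and 233 without a tumor and 201 and 212 with one. Its WT tumor libraries differed most from each other, with replicate 2 at 0.477 times replicate 1. The log2 difference in WT was -2.75 (SE 0.346, limma adjusted p = 8.61e-05).

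Clec1b, whose signalling activates platelets on contact with podoplanin, had 1132 and 1552 normalized counts in WT nontumor, 144 and 144 in WT tumor. In EBi3KO mice it had 911 and 1354 without a tumor and 648 and 689 with one. It is the gene of the 7 with the lowest adjusted p in WT: the log2 difference was -3.20 (SE 0.194, limma adjusted p = 1.84e-06), a 9.16-fold lower level. The EBi3KO tumor libraries also lay below both EBi3KO nontumor libraries.

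Transcript length moved with the tumor effect. Across the 98.9% of tested genes with a length, the log2 difference in WT correlated with length at a Spearman rho of 0.453, so short transcripts were on average lower in WT tumor. Genes are not independent replicates. The transcripts of the 7 genes run from 588 bases (Pf4) to 3437 bases (Itga2b). With each library's trend on length and GC content removed, an alternative that keeps all 7 calls, the log2 difference in WT became -0.87 for Pf4, -0.69 for Ppbp, -1.50 for Gp9 and -1.82 for Treml1. It became -2.22 for Clec1b, -2.96 for Gp1bb and -2.01 for Itga2b. The part of length in the result was not tested further.

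**Figure D2:**
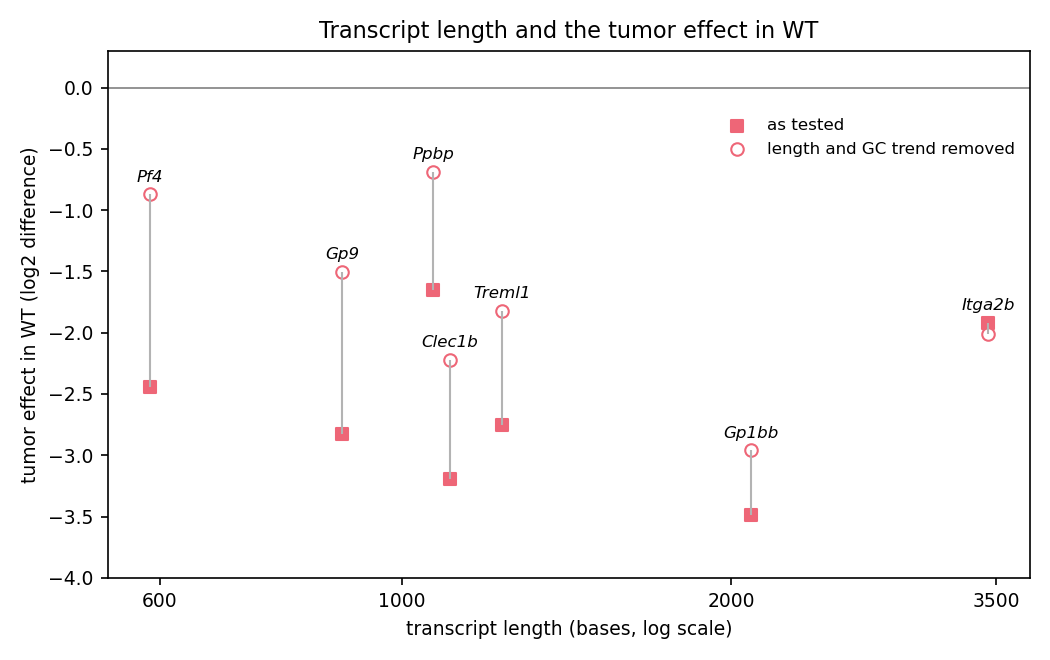
Log2 difference of the 7 genes in WT (tumor minus nontumor) against transcript length in bases (log scale), as tested and with the trend on length and GC content removed; Ppbp and Clec1b, of nearly equal length, are drawn slightly apart. Pf4, the shortest at 588 bases, moves most, from -2.44 to -0.87, and Itga2b, the longest, moves least.

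In EBi3KO mice the same comparison gave 1 of 7 genes called lower and 0 called higher, beside 18.5% of all tested genes called lower. The median log2 difference of the 7 was -0.12, and that of all genes was -0.0077. Clec1b was the gene called, with a log2 difference of -0.73 (SE 0.194, 95% interval -1.17 to -0.29, limma adjusted p = 0.0243). Its call ended when either EBi3KO tumor library or EBi3KO nontumor replicate 2 was left out, the last of which gave -0.45. It also ended when the EBi3KO tumor libraries were averaged as 1 sample, without the filter on low values, and without the trend in limma's prior variance, with adjusted p up to 0.144.

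For the other 6 genes the difference in EBi3KO did not pass the test, and the intervals give the sizes left possible. Pf4 had a log2 difference of -0.12 (95% interval -0.62 to 0.37), Ppbp 0.14 (-0.35 to 0.63) and Itga2b -0.09 (-0.63 to 0.45). Gp1bb had -0.13 (-0.94 to 0.67), Treml1 -0.09 (-0.88 to 0.69) and Gp9 -0.46 (-1.11 to 0.19). Every one of these 6 lower bounds lies above the upper bound of the same gene in WT, where the highest is -1.16 for Ppbp. Limma adjusted p-values ran from 0.235 (Gp9) to 0.846 (Treml1).

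The tumor effects of the genotypes differed for all 7 genes by the interaction, which subtracts the WT tumor effect from the EBi3KO one. It was positive and called for each, from 1.79 (Ppbp, limma adjusted p = 0.00174) to 3.35 (Gp1bb, limma adjusted p = 0.000976), where 27.5% of tested genes were called higher. With the length and GC trend removed it stayed called, at 1.13 for Pf4, 1.05 for Ppbp and 1.32 for Gp9 in place of 2.32, 1.79 and 2.37. This comparison includes WT tumor and so carries the difference in sex and title prefix.

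**Figure D3:**
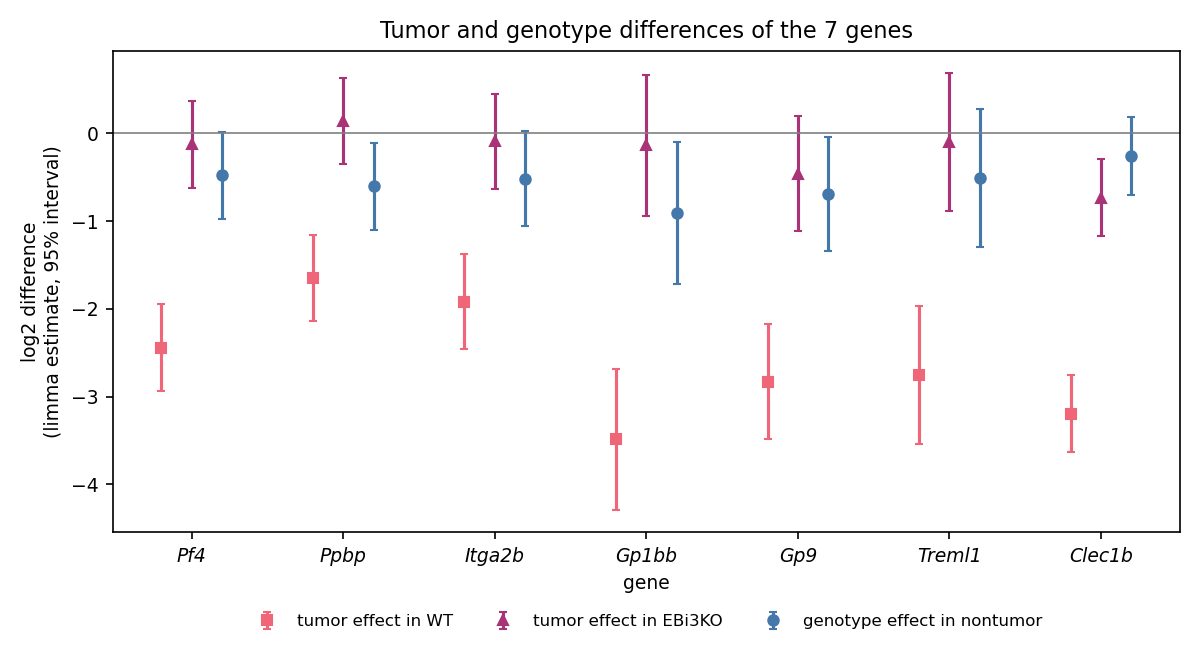
Log2 differences of the 7 genes with 95% intervals for the tumor effects of both genotypes and for EBi3KO against WT without a tumor (limma, 2 libraries a group). All 7 intervals of the tumor effect in WT lie below 0, and of the tumor effect in EBi3KO only that of Clec1b does. For EBi3KO against WT without a tumor 3 of the 7 intervals lie below 0, and none of these genes was called after adjustment.

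Between genotypes without a tumor, 0 of 7 genes were called, and 0% of the 13011 tested genes were called by limma. At an unadjusted p below 0.05 limma gave 1049 genes, 3 of the 7 among them. On the recovered reads edgeR called 0 genes and DESeq2 called 21. The log2 differences of the 7 were all negative, from -0.26 (Clec1b) to -0.91 (Gp1bb, 95% interval -1.71 to -0.10), with limma adjusted p-values of 0.604 to 0.646. These sizes hang on the WT nontumor libraries: without replicate 1 the median of the 7 was -0.94 and Gp1bb stood at -1.47, and without replicate 2 the median was -0.13 and Gp1bb stood at -0.35. Itga2b went from -0.94 to -0.09 and Treml1 from -0.92 to -0.09 in the same way, and none was called. For Gp1bb the EBi3KO libraries, at 65.2 and 66.2 normalized counts, both lay below the WT libraries. The same held for Pf4, Ppbp and Treml1, while Itga2b, Gp9 and Clec1b overlapped. How many of all tested genes separate in this way is not given here.

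The 2 WT nontumor libraries differed from each other in these genes. All 7 were higher in replicate 2 than in replicate 1, by 1.37 times (Clec1b) to 2.19 times (Gp1bb), where the median ratio of all tested genes was 0.994. In the same pair the summed granulocyte markers went the other way, from 5942 to 2476 normalized counts. In the remaining groups the ratio of replicate 2 to replicate 1 ran from 1.02 to 1.53 in EBi3KO nontumor, from 0.922 to 1.23 in EBi3KO tumor and from 0.477 to 1.001 in WT tumor.

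Between genotypes with a tumor, all 7 genes were higher in EBi3KO, beside 31.9% of tested genes called higher. This comparison shares the WT tumor libraries with the tumor effect in WT. The compared groups also differ in sex and title prefix, which cannot be told apart from the genotype here. The log2 difference was 2.44 for Gp1bb (limma adjusted p = 0.000483), 2.21 for Clec1b (5.09e-05), 2.15 for Treml1 (0.000829) and 1.84 for Pf4 (0.000174). It was 1.68 for Gp9, 1.31 for Itga2b and 1.19 for Ppbp. With the length and GC trend removed Pf4 stood at 0.86, Gp9 at 0.76 and Ppbp at 0.62, all still called.

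Together the 7 genes had 4876 and 8050 normalized counts in WT nontumor, but 1481 and 1207 in WT tumor. Without a tumor the EBi3KO libraries had 3975 and 4994, and with one 3868 and 3912. The EBi3KO tumor libraries lay just below the EBi3KO nontumor ones. As RPM (recovered reads scaled to library depth) the sums were 167 and 270 in WT nontumor, 68.1 and 56.5 in WT tumor. EBi3KO libraries held 146 and 175 without a tumor and 157 and 159 with one. The mix within this sum was not the same everywhere. Ppbp made up 24.9% and 25.8% of it in WT nontumor and 36.6% and 39.0% in WT tumor, while Clec1b made up 23.2% and 19.3%, then 9.7% and 11.9%. In EBi3KO nontumor Ppbp held 23.8% and 23.0% and in EBi3KO tumor 29.5% and 29.6%, while Clec1b held 22.9% and 27.1%, then 16.8% and 17.6%. Pf4 stayed between 11.9% and 16.1% in all 8 libraries.

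Beyond these 7, further platelet lists were drawn up by function. Of 16 other platelet surface proteins and receptors, 14 were tested; F2rl3 and Mpig6b (listed as G6b) fell below the filter. In WT 9 of the 14 fell with a tumor and 0 rose (median log2 difference -1.61), where 40.1% of all tested genes fell and 39.6% rose. P2ry12, the ADP receptor, went from 682 to 154 normalized counts (group means), the tetraspanin Cd9 from 3027 to 942, the adhesion molecule Esam from 182 to 32.4, and the thrombin substrate Gp5 from 225 to 46.6.

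Not every partner of the 7 genes moved with them. Itgb3, the beta chain that pairs with Itga2b, had 740 and 1041 normalized counts in WT nontumor and 958 and 945 in WT tumor (log2 difference 0.12, limma adjusted p = 0.461). Gp1ba, the ligand-binding chain that pairs with Gp1bb, had 99.5 and 132 in WT nontumor and 142 and 136 in WT tumor (log2 difference 0.28, limma adjusted p = 0.217). Selp, the adhesion receptor P-selectin, was low throughout. It had 17.9 and 21.9 normalized counts in WT nontumor and 32.6 and 29.1 in WT tumor (log2 difference 0.61, limma adjusted p = 0.0651).

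In EBi3KO 2 of the 14 surface genes fell and 0 rose (median -0.0072), a share no higher than the 18.5% of all tested genes called lower: P2ry12, with a log2 difference of -0.67 (limma adjusted p = 0.0209), and P2ry1, the other ADP receptor, with -1.16 (limma adjusted p = 0.0246). Over the alternatives that count was 0 to 2. Esam, Gp5 and P2rx1, called lower in WT, had EBi3KO log2 differences of -0.04, -0.00391 and 0.01, and their interactions were called at 2.38, 2.18 and 1.62.

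All 10 granule proteins and lipid mediator enzymes fell in WT (median -1.24), against 40.1% of all tested genes; over the alternatives 8 to 10 fell. The largest differences were those of Tbxas1, thromboxane synthase, at -3.69 and of Ptgs1, cyclooxygenase 1, at -3.45. In EBi3KO these 2 and the protease inhibitor Serpine2 fell, 3 of 10 (median -0.006) beside 18.5% of all genes, with log2 differences of -1.004, -1.06 and -0.77; over the alternatives the count was 1 to 4. Ptgs1 had 2428 and 2517 normalized counts in WT nontumor, 235 and 217 in WT tumor. Values in EBi3KO were 1920 and 2520 without a tumor and 1066 and 1044 with one. Tbxas1 and Ptgs1 are also expressed by macrophages. Vwf, the von Willebrand factor shared with endothelium, had a log2 difference of -1.31 in WT and of -0.44, not called, in EBi3KO.

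The cytoskeletal and signalling list lay near the background of all genes. In WT 5 of 10 fell and 3 rose (median -0.13), where 40.1% of tested genes fell and 39.6% rose. Gng11, a G protein gamma subunit, went from 1557 to 295 normalized counts and Myl9, a myosin light chain, from 1033 to 182. Tubb1, the platelet beta tubulin, had a log2 difference of -0.70 in WT (limma adjusted p = 0.00248) and of 0.58 in EBi3KO, where it rose (limma adjusted p = 0.0234), and its interaction was 1.28 (limma adjusted p = 0.00164). Nbeal2, needed for alpha granules, rose in WT by 1.19 on the log2 scale, and Rasgrp2, which B cells also express, rose by 0.37 in each genotype. In EBi3KO 2 of 10 rose and 0 fell, beside 14.1% of tested genes called higher, and over the alternatives 0 to 3 rose.

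Transcription factors of megakaryocytes gave another pattern. Of 9, 5 fell in both genotypes: Gata1, Gfi1b, Tal1, Nfe2 and Zfpm1. Of all tested genes, 40.1% fell in WT and 18.5% in EBi3KO, so the count in WT is not far above its background. Gata1 had 938 and 1108 normalized counts in WT nontumor, 23.0 and 29.1 in WT tumor. EBi3KO values were 1073 and 981 without a tumor and 124 and 146 with one. Its log2 difference was -5.25 in WT and -2.93 in EBi3KO (limma adjusted p = 1.45e-05 in EBi3KO). Runx1 and Fli1, which B cells express as well, rose in WT by 0.80 and 0.63 and were not called in EBi3KO. In EBi3KO the 7 genes had log2 differences of -0.73 to 0.14, while Gata1, Gfi1b and Tal1, which act in red cell formation too, lay at -2.63 or below.

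**Figure D4:**
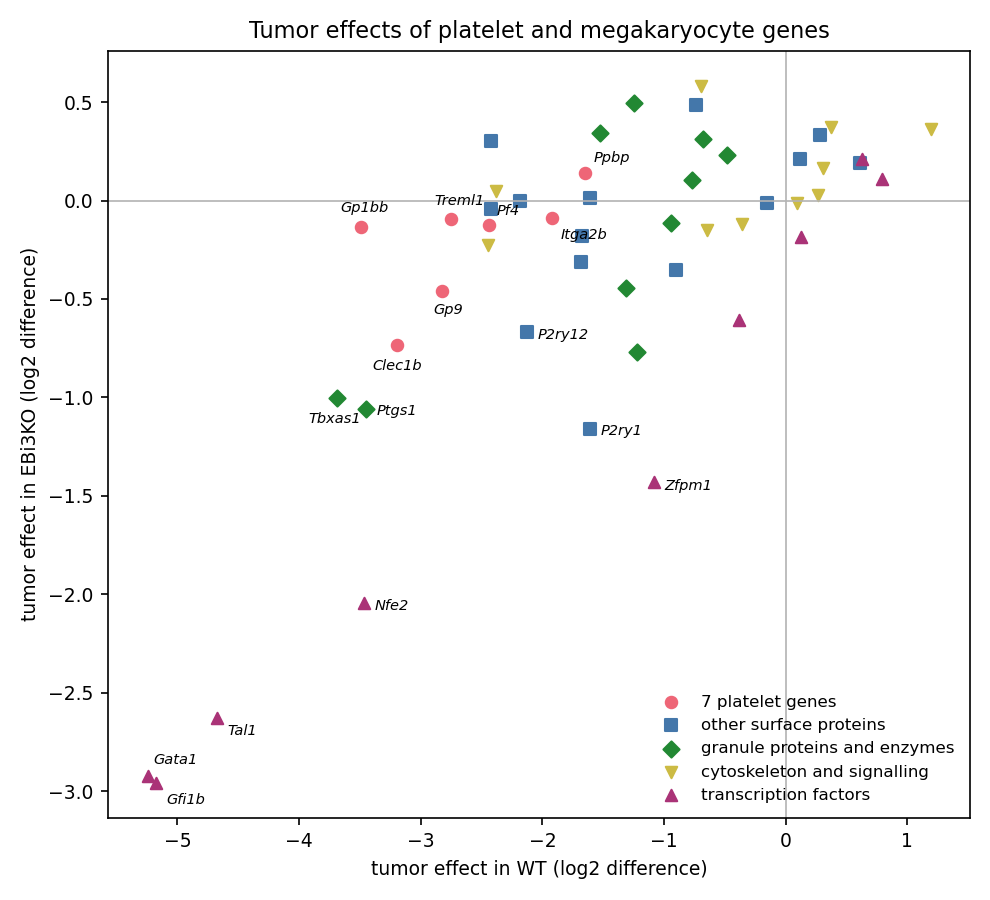
Log2 difference with a tumor in EBi3KO (vertical) against that in WT (horizontal) for the tested genes of the 5 platelet and megakaryocyte lists. All 7 platelet genes lie left of 0, 6 of them between -0.46 and 0.14 on the vertical axis, while Gata1, Gfi1b, Tal1 and Nfe2 lie low on both axes.

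Markers of other blood cells moved with these groups, and their part in the results was not tested. Of all tested genes, 40.1% fell in WT and 18.5% in EBi3KO, the background for this and the following lists. All 10 tested erythroid markers fell in both genotypes. Their summed normalized counts ranged from 182633 to 193634 in WT nontumor, 16146 to 23437 in WT tumor, and in EBi3KO 288344 to 441049 without a tumor and 69965 to 72182 with one. Relative to the nontumor mean, the erythroid sum was 10.5% in WT tumor and 19.5% in EBi3KO tumor, where the sum over the 7 platelet genes was 20.8% and 86.7%.

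Monocyte and macrophage markers fell for 12 of 12 in WT and 11 of 12 in EBi3KO, and their sum was 8.7% and 52.4% of the nontumor mean. Of 10 granulocyte markers 9 fell in WT, and 7 in EBi3KO, with sums at 14.4% and 19.6%. The chemokine receptor Cxcr2 rose in WT, from 64.4 to 428 normalized counts (group means), and without it the granulocyte sums were 4.3% and 17.1%.

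Other lists, like the 7 genes, were well below the nontumor mean in WT and nearer to it in EBi3KO. T and NK cell markers were at 30.3% and 109.1%. Of 9 tested, 8 fell in WT and 1 in EBi3KO, beside 40.1% and 18.5% of all tested genes. Stem and progenitor markers were at 28.2% and 91.6%. That list shares Kit and Gata2 with the basophil list, so the sums of these lists are not independent. Basophil and mast cell markers were at 30.5% and 108.5%; in WT 7 of 8 fell and the IgE receptor chain Ms4a2 rose, from 18.5 to 86.9 normalized counts, and without it the sums were 18% and 106.3%. The basophil protease Mcpt8 had 130 and 103 normalized counts in WT nontumor, 6.35 and 3.15 in WT tumor, but 108 to 149 in the 4 EBi3KO libraries. B cell markers were at 114.3% and 104%.

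Endothelial markers also fell in WT, for 5 of 7 tested (median log2 difference -1.88), where 40.1% of all tested genes fell. Among these 5 were Esam and Vwf, which stand on the platelet lists as well. The sinusoidal receptor Stab2 went from 1327 to 198 normalized counts, Plvap from 80.2 to 21.0 and Egfl7 from 24.3 to 5.13. Cdh5 did not pass the test, with 27.4 and 40.2 in WT nontumor against 40.5 and 44.8 in WT tumor. Pecam1, which B cells express too, rose and holds most of the reads of the list. The endothelial sum was 109.8% of the nontumor mean in WT and 97% in EBi3KO, and without Pecam1 it was 22.9% and 59.5%. In EBi3KO 2 of 7 fell, Stab2 and Plvap, beside 18.5% of all tested genes.

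The scale shifts these percentages. As RPM, the 7 genes stood at 28.5% of the nontumor mean in WT tumor and 98.34% in EBi3KO tumor, B cell markers at 156% and 118%, and T and NK cell markers at 41.4% and 123%. Basophil and mast cell markers were at 41.6% and 122%, erythroid markers at 14.4% and 22.1%, and monocyte and macrophage markers at 11.9% and 59.4%.

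**Figure D5:**
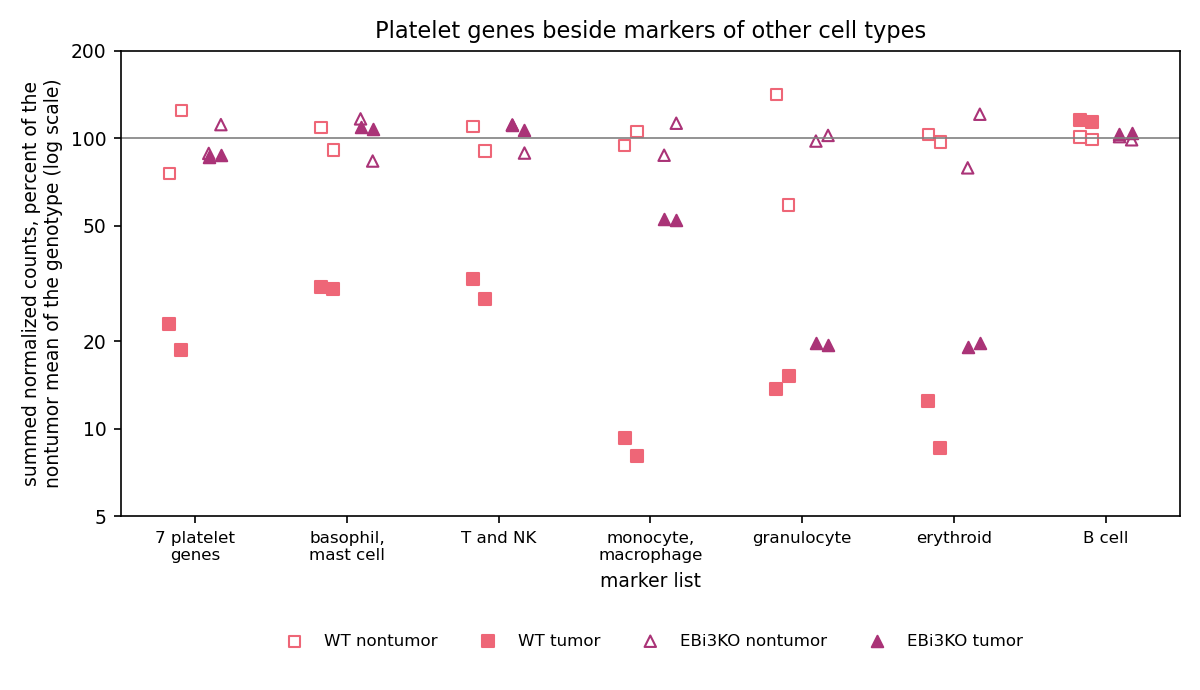
Normalized counts summed over the 7 platelet genes and over marker lists for other cell types in each library, as a percent of the nontumor mean of the same genotype (log scale). The platelet genes of EBi3KO tumor stand at 86.7% of the nontumor mean and basophil and T cell markers above it, whereas granulocyte and erythroid markers stand at 19.6% and 19.5%.

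The 7 genes moved together over the 8 libraries. The correlation of each with the mean of the other 6, on the log2 scale, was between 0.964 (Clec1b) and 0.996 (Pf4), a description over libraries that fall into 4 groups. Among 10933 other genes with a mean of at least 50, the closest in pattern were Afp (Pearson r 0.998), Cmtm7, Mrpl38, Rheb, Gpn3, Marcksl1, Nrgn, Myl9, Hist1h2bc and Mrpl10 (0.995). The same measure reached 0.9 for 3036 genes and 0.95 for 1895. Myl9 belongs to the platelet lists, and Nrgn, a calmodulin-binding protein also present in platelets, went from 1350 ± 440 normalized counts in WT nontumor to 257 ± 54.8 in WT tumor, with 1039 ± 145 and 837 ± 37.3 in the EBi3KO groups.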

How the data were processed

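RNA was sequenced from 8 libraries in 4 groups of 2, with a stranded paired-end mRNA kit per the labels' protocols. The authors deposited 1 signal table of normalized counts. Salmon, DESeq2 and mm10 are named per the submitters' processing notes, with versions not given in the sources used here. Dividing each library by its smallest step recovered whole reads for 100% of values (tolerance 0.01), 21291892 to 28297319 per library.

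Genes with a mean of at least 10 (13011 of 23302 entries) were tested on log2(normalized count + 1) with limma 3.58.1 (R 4.3.3). The model had 4 group means, with prior variance following the mean, and tests were two-sided. Benjamini-Hochberg adjustment ran over every tested gene, and genes were called below 0.05. Fold changes are on the log2(value + 1) scale, which understates those of low genes. The comparisons numbered 5. The scripts were tested on simulated data.

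Genes were named as follows: all 7 members, up to 4 genes per further platelet list and comparison with the smallest adjusted p, other list members by level, and the 10 genes most correlated with the members' mean (mean at least 50). Itgb3, Gp1ba, Selp, Runx1, Fli1, Cxcr2, Ms4a2, Mcpt8 and the endothelial markers were singled out after their values were seen. The members and lists were chosen with earlier results of these data known.

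There were 22 alternatives. They changed the pseudocount, the filter, the scaling, the prior variance, the libraries fitted, the replicate block and the tool (edgeR 4.0.16, DESeq2 1.42.0 on recovered reads), or removed the length and GC trend (loess, span 0.3). The averaging of the EBi3KO tumor libraries and the crossed block were added after the data were seen. Date names stood in place of symbols in 27 entries, which were left as they are.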

Additional observations from a re-analysis of the deposited data

Results flagged for a closer look

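The tumor effect differed between the genotypes for all 7 genes, by the interaction term of limma over all tested genes. The difference, EBi3KO minus WT on the log2 scale, was 2.32 for Pf4 (adjusted p = 0.000617), 1.79 for Ppbp (0.00174), 1.83 for Itga2b (0.00245) and 3.35 for Gp1bb (0.000976). It was 2.37 for Gp9 (0.00177), 2.66 for Treml1 (0.00243) and 2.46 for Clec1b (0.00032). The same test called 52.9% of all tested genes. WT tumor also differs from the other groups in sex and title prefix, which cannot be told apart from the tumor or the genotype here.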

How the results depend on the processing

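Of 651 recomputed values for the 7 genes, 639 kept their direction and their side of the threshold, 6 lost a call and 6 changed sign. All 7 genes kept their calls in the interaction, the tumor effect in WT and the comparison of genotypes with a tumor under every alternative run. The 6 lost calls are those of Clec1b in EBi3KO, so the count of genes called there was 0 in place of 1 without the filter, without the variance trend and with the EBi3KO tumor libraries averaged, and 0 to 1 with a library left out. Sign changes were near 0 and never called: in EBi3KO, Treml1 stood at 0.0086 with quantile scaling and at 0.0903 with the length and GC trend removed, and Pf4 at 0.26 with that trend removed. With a library left out, Ppbp ranged from -5e-04 to 0.28 and Itga2b from -0.18 to 5e-04 in EBi3KO, and Clec1b from -0.54 to 0.0303 in the genotype effect in nontumor. Over all genes, 4242 were called in EBi3KO with a tumor, against 2375 without the variance trend, 736 with the EBi3KO tumor libraries averaged, and 756 to 4827 with a library left out. The lowest values came without either EBi3KO tumor library (756 and 788) or EBi3KO nontumor replicate 2 (1213). The share of those calls that were higher was 43.4%, against 53.8% with quantile scaling, 30.3% with the length and GC trend removed and 10.9% with the averaged libraries. For the genotype effect in nontumor, DESeq2 called 21 genes in place of 0, and leaving out a library gave 0 to 5. The interaction called 4379 genes with the trend removed in place of 6881, 65.2% of them higher in place of 52%; in the genotype effect in tumor that share was 67.4% in place of 52.8%. The cause was not tested. The title number was used as a replicate block, although it is only a number shared between WT nontumor and WT tumor: 10158 genes were called in WT in place of 10378, and no call of the 7 genes changed. Deviations of same-numbered WT libraries correlated at -0.256, and the crossed pairing called 10519 genes. Depth limits Gp1bb in WT tumor, at 15 and 11 reads.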
